A study of Mus musculus with 4 samples.

Results

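The chromosome 12 block described here is the stretch of mouse chromosome 12 from 51 Mb to 114.4 Mb in the mm9 genome, 63.4 Mb long, whose genes have their human counterparts on chromosome arm 14q. Its members were all non-control probes of a mouse comparative genomic hybridisation array whose midpoint falls in that stretch. They numbered 4313 of the 170305 probes on the array. A further 2374 probes lay on chromosome 12 nearer the centromere than the block, and 459 lay beyond it. Within the block 2690 probes carried a gene name in the files, for 438 genes, and 1623 carried none. Probes were spaced at a median of 10.5 kb.

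Array comparative genomic hybridisation measures DNA copy number: tumour DNA and control DNA carry different dyes, compete for the same probes, and the ratio of the dyes reads the copies in the tumour relative to the control. Loss of 14q is among the chromosome-arm losses described in human liver cancer. The block carries Gstz1, which acts in tyrosine breakdown, and genes of other metabolism. It also carries a cluster of serpin protease-inhibitor genes and the imprinted domain from Dlk1 to Dio3, whose maternally expressed transcripts contain a large cluster of miRNAs.

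The DNA came from liver tumours of 4 mice, called 239, 240, 244 and 252, labelled as male FAH-/- Trp53-/- animals. Trp53 is the gene of the tumour suppressor p53, and Fah that of the enzyme at the end of the tyrosine pathway. Without Fah, mice survive on NTBC, which stops the pathway further up. Their water held NTBC at 7.5 mg per L, and for 6 months they received only 2.5% of that amount. Each tumour, in Cy5, was hybridised against the same Cy3-labelled pool, made of the liver DNA of 3 littermates of matched sex that were FAH+/+ Trp53+/+. A knockout that is present in every cell and a tumour were therefore compared with a normal liver at once, and the separate part of genotype, drug and tumour in any difference cannot be told apart. Since the control livers were pooled into 1 sample, how much they vary enters no test. Every test rests on the spread among 4 tumours, which limits its precision.

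Every value is a log2 ratio, tumour over pool, with each array centred on the median of its probes on chromosomes 1 to 19. A value of 0 is thus the array's median autosomal level, and, where 0 stands for 2 copies, -1 would be the loss of 1 of them in every cell. The most common level lay 0.10 above that median in tumour 244, and between -0.0040 and 0.016 from it in the other tumours. Neighbouring probes scattered with an SD from 0.25 in tumour 239, the least noisy array, to 0.35 in tumour 252. Within the block 98.9% to 99.9% of probes stood well above background in either colour. The array of tumour 252 stood apart from its label: its X probes had a median of 0.73 and its Y probes of -2.43, whereas the X medians of the others lay between -0.30 and -0.09. The Y medians of tumours 239, 240 and 244 were -0.31, -0.14 and -1.20, so the Y probes of tumour 244 were low too. The block mean, the counts of bins and genes and the counts of the gene lists are given without tumour 252 as well. The 2 Trp53 probes averaged between 0.06 and 0.09 and the 2 Fah probes between -0.19 and 0.30, and since the sources used here do not give the deleted parts, these probes do not check the genotype.

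The probes that carry single genes of interest are shown first, because several genes of the block are read by only 1 or 2 of them. Each is printed 5′ to 3′ with G and C in capitals, since the base composition of a probe bears on how it hybridises. Gstz1, the enzyme that makes the substrate of Fah, has 2 probes, at chr12:88497245-88497304 and chr12:88505294-88505353. Sav1, a scaffold of the growth-restraining Hippo pathway, has 2, at chr12:71070750-71070809 and chr12:71079959-71080018. Foxa1, a liver transcription factor, has 1, at chr12:58645586-58645645. Akt1, a kinase of insulin and growth signalling, has 1, at chr12:113904354-113904411. Dlk1, a fetal liver ligand, has 1, at chr12:110692571-110692630. Whether these sites are exonic or intronic was not examined, because no annotation of mm9 was used here.
Gstz1, the first probe: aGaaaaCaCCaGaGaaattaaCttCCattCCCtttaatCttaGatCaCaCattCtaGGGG
Gstz1, the second probe: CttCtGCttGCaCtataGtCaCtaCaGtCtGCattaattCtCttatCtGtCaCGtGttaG
Sav1, the first probe: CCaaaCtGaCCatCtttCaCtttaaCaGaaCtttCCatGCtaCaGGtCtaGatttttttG
Sav1, the second probe: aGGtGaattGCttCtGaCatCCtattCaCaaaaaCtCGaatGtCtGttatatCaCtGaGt
Foxa1: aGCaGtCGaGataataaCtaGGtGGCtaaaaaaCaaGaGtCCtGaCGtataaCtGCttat
Akt1: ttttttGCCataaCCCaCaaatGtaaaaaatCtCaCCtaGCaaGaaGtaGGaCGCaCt
Dlk1: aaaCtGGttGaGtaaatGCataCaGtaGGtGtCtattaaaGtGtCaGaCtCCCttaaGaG
These 7 probes hold between 36.7% and 40.0% G and C, close to the block's mean of 36.8%.

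The block as a whole lay below the autosomal level in every tumour. Its mean over probes was -0.39 in tumour 239, -0.20 in tumour 240, -0.38 in tumour 244 and -0.24 in tumour 252. Tumours 239 and 244 were the lower pair. The mean over tumours was -0.30 ± 0.10 (SD, n = 4), with an exact two-sided sign-flip permutation p of 0.125, the smallest that 4 tumours can give, and 0.1875 after Benjamini-Hochberg adjustment over 3 such tests. Without tumour 252 the mean was -0.33. In each tumour the block lay below all 18 other autosomes. The nearest of these were chromosome 8 at -0.09 in tumour 239, chromosome 13 at -0.11 in tumour 240 and -0.31 in tumour 244, and chromosome 9 at -0.09 in tumour 252. Tumours 240 and 244 thus came closest to their nearest autosome, and tumour 239 stood farthest from its own. In tumour 244, besides chromosome 13, chromosomes 4, 6, 7, 9 and 10 were also low, between -0.25 and -0.23. Chromosome 3 lay at -0.07 there, and the remaining autosomes other than chromosome 12 lay above 0.

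Read as the loss of 1 of 2 copies in diploid cells, these levels would correspond to 47.9% of cells in tumour 239, 25.9% in tumour 240, 46.8% in tumour 244 and 30.2% in tumour 252. This is arithmetic on the ratio, and how many chromosome sets the cells carry was not measured. In bulk DNA, few cells with the loss and a smaller loss per cell cannot be told apart, and normal cells in the sample lower the size of every value. The figures also depend on where 0 is set: centring on the most common level instead of the median moved tumour 244 to 57.3%, and a normexp background correction moved tumour 240 to 33.4% and tumour 252 to 37.8%.

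The low level was not confined to the block. The part of chromosome 12 nearer the centromere averaged -0.41, -0.22, -0.40 and -0.26 in tumours 239, 240, 244 and 252. The distal end beyond the block averaged -0.38, -0.20, -0.37 and -0.24. Block and flanks therefore lay at nearly the same level within each tumour, while the tumours differed from each other. The block was above the proximal part by 0.016, 0.021, 0.020 and 0.022, a mean of 0.020 ± 0.0027 (SD, n = 4, exact two-sided sign-flip permutation p = 0.125). The difference had the same sign in 4 of 4 tumours but was small beside the SD of 0.09 among 1 Mb bins of the block. The block differed from the distal end by -0.014, 0.0013, -0.014 and 0.0038, a mean of -0.0056 ± 0.0094 (SD, n = 4, exact permutation p = 0.5), and that sign turned to a mean of 0.00060 when medians over probes were used.

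**Figure D1:**
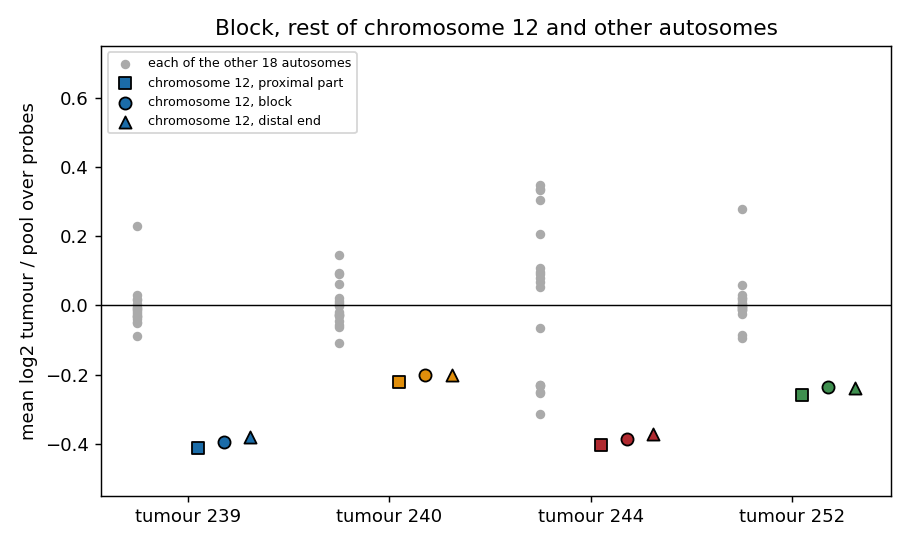
Mean log2 ratio of tumour over pool (vertical axis) in each of the 4 tumours (horizontal axis). Coloured squares, circles and triangles stand for the proximal part, the block and the distal end of chromosome 12, and grey points for each of the other 18 autosomes. In each tumour the block (-0.39, -0.20, -0.38 and -0.24) sits beside both flanks and below every grey point.

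Single probes showed the same shift as the means. Probes below 0 made up 92.6% of the block in tumour 239, 73.2% in tumour 240, 87.2% in tumour 244 and 74.2% in tumour 252. On chromosomes 2, 5 and 11 together the shares were 44.7%, 43.0%, 37.9% and 46.5%. Below 0 in all 4 tumours were 2801 of the 4313 block probes, or 64.9%, against 26.5% of probes on the autosomes other than chromosome 12. Across block probes, values of any 2 tumours correlated with r between 0.69 and 0.85 (n = 4311 to 4313 probes), which is a description, since all 4 arrays share the pool and the probe sequences.

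A few probes stood far from their neighbours. At -1 or lower in all 4 tumours were 41 block probes, 0.951% of the block against 0.618% of the probes of the other autosomes. Of these 41, only 4 had a neighbouring probe that was also that low, and the 10 probes around each had medians between -0.65 and -0.12. They were thus isolated spots rather than runs, and 18 of them carried a gene name. The lowest and the highest members of the block are shown here because both read far outside the level of their surroundings in all 4 tumours. The probe at chr12:51945505-51945564 read -2.42, -2.49, -2.84 and -2.55 in tumours 239, 240, 244 and 252, while the median of its 10 neighbours was -0.45. The probe at chr12:78087518-78087577 read 2.02, 2.30, 1.73 and 1.97, while its neighbours had a median of -0.35, and no other block probe was at 1 or higher in all 4. A further probe, at chr12:93503136-93503195, had a lower mean still, but its tumour signal was not well above background in tumours 239 and 244.
Lowest probe measured on all 4 arrays: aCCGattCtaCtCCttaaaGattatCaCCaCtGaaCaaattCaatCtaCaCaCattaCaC
Highest probe in all 4 tumours: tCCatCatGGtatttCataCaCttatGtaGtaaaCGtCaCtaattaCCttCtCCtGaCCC
With 1 pool on all arrays, whether such a value belongs to the tumours, to the pool or to the probe cannot be told apart.

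Along the block the level rose and dipped together in the 4 tumours. In 1 Mb bins with at least 5 probes, of which the block has 63, all 63 lay below 0 in every tumour, whereas 28.3% of the 2541 bins of the genome were below 0 in all 4. Bin values ran from -0.64 to -0.27 in tumour 239, from -0.45 to -0.03 in tumour 240, from -0.61 to -0.24 in tumour 244 and from -0.49 to -0.09 in tumour 252. At -0.2 or lower were 63, 32, 63 and 43 bins. Tumours 239 and 244 were lower than both other tumours in 63 of 63 bins. Tumour 252 was lower than tumour 240 in 58 bins, and tumour 239 was lower than tumour 244 in 39, so the order within the lower pair was not steady along the block.

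**Figure D2:**
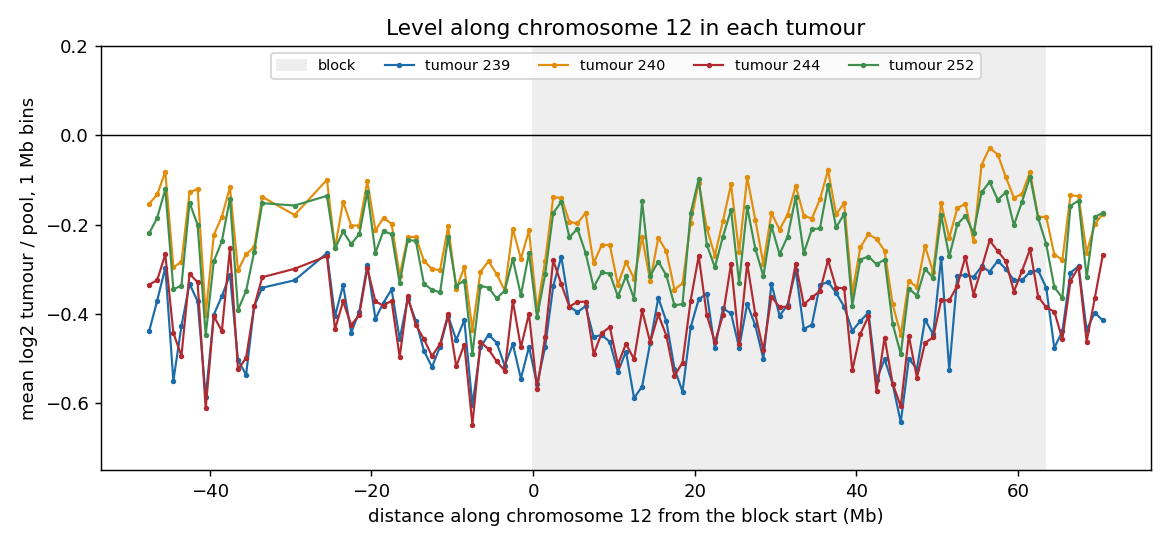
Mean log2 ratio of tumour over pool (vertical axis) in 1 Mb bins along chromosome 12, placed by distance in Mb from the block's start (horizontal axis), with the block shaded and 1 line per tumour. The 4 lines run in parallel through block and flanks with no step at either edge, tumours 239 and 244 below the others, and all 63 block bins lie below 0 in every tumour.

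In windows of 5 Mb, the lowest stretch was 95 to 100 Mb, with -0.51, -0.33, -0.51 and -0.37 in tumours 239, 240, 244 and 252. It holds 7 named genes, among them Flrt2 and Galc, and 36.8 probes per Mb, fewer than most of the block. The windows at 60 to 65 Mb and 65 to 70 Mb followed, both with a mean of -0.39 over tumours. The highest window was 105 to 110 Mb, with -0.30, -0.10, -0.29 and -0.14, and the last, from 110 Mb to the block's end, had a mean of -0.23. In each tumour the lowest window was lower than the highest by about the same amount. Of single bins, the lowest began at 96 Mb, with a mean of -0.55 ± 0.09 (SD, n = 4), followed by those at 51 Mb, which holds Prkd1, and 95 Mb, which holds no named gene, both at -0.48. The 3 highest were those at 107 Mb with Vrk1, Papola and Ak7, at -0.17, and at 108 Mb and 112 Mb, the latter with Traf3, Mark3, Cdc42bpb and Klc1, both at -0.18.

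The lowest bin shows how far a gene can differ from the stretch around it. Flrt2, a cell-adhesion protein gene, has 7 probes in that bin, which averaged -0.23, -0.04, -0.21 and -0.07 in tumours 239, 240, 244 and 252. The other 25 probes of the same bin averaged -0.76, -0.56, -0.72 and -0.61. Both sets kept the order of the tumours, and the gap between them was similar in all 4. This split was looked at after the values were seen and has no test.

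The spread along the block was that of other chromosomes. The SD over bins was 0.09 in each tumour, and on chromosomes 2, 5 and 11 it lay between 0.08 and 0.10. A tumour's own departure in a bin was its value minus the mean of the other 3 tumours, less the average of that difference over the region. These departures lay between -0.19 and 0.16 in the block, and between -0.13 and 0.24 on those 3 chromosomes. The lowest departure in the block, in tumour 239, was thus farther from 0 than any low one on those chromosomes, where that tumour reached -0.13. The highest, 0.16 in tumour 252, was above that tumour's 0.08 there. Both fell in the bin that begins at 64 Mb, which has 25 probes, no named gene and the largest SD over tumours in the block, 0.18. They are not independent of each other, since each tumour is set against the others. Bin values of any 2 tumours correlated with r between 0.81 and 0.95 (63 bins), again with pool and probes shared.

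Probe density and base composition moved with the profile. Across the 63 bins, the level correlated with the number of probes in the bin with r between 0.43 and 0.59, and with the mean G and C content of its probes with r between 0.35 and 0.44. On chromosomes 2, 5 and 11 the first lay between 0.29 and 0.62 and the second between 0.20 and 0.46. These are descriptions, since neighbouring bins and the 4 arrays are not independent. The 21 bins with the lowest probe G and C content averaged -0.36 over tumours and the 21 with the highest -0.28. Probes with a gene name averaged -0.37, -0.19, -0.37 and -0.22 and those without one -0.43, -0.21, -0.41 and -0.27, so unnamed probes were the lower set in each tumour. The part of density and base composition in the profile was not tested beyond a linear correction on G and C, after which the second correlation lay between 0.19 and 0.24.

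**Figure D3:**
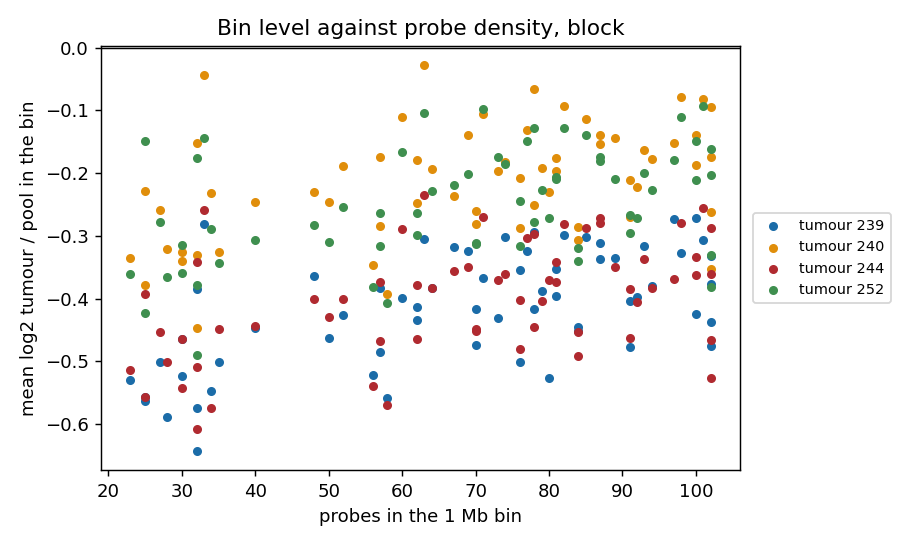
Mean log2 ratio of tumour over pool in each of the 63 bins of the block (vertical axis) against the number of probes in the bin (horizontal axis), 1 colour per tumour. In every tumour bins with few probes tend to lie lower (r between 0.43 and 0.59), and no bin reaches 0.

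Tested with limma over all bins of the genome with Benjamini-Hochberg adjustment, 55 of the 63 bins passed an adjusted p of 0.05 below 0 and 0 passed above, where 8.5% of all bins passed below and 4.6% above. At an unadjusted p of 0.05, 63 bins passed. On the rest of chromosome 12, 48 of 50 bins passed below. The count depended on which tumours were used: it was 0 without tumour 239 (58 at an unadjusted p of 0.05), 31 without tumour 240, 53 without tumour 244 and 46 without tumour 252. Without tumour 239 no bin of the whole genome passed below 0. Taken relative to the chromosome's own mean in the same tumour, 25 bins passed below and 22 above, near the 36.4% and 31.2% of all bins that did, so bins of the block stood off their chromosome about as often as bins elsewhere.

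Of the 438 genes, 320 lay below 0 in all 4 tumours and 11 above, against 23.5% and 28.7% of all genes. The median gene of the block had a mean of -0.26, and the median of all 18692 genes was 0.02. With limma over all genes, 268 block genes passed an adjusted p of 0.05 below 0 and 6 above, where 15.1% of all genes passed below and 17.6% above. Leaving out a tumour left between 205 (without tumour 239) and 246 (without tumour 252) below. All 4 arrays share the pool, the dye that marks the tumour and the probes. A bias fixed to any of these enters a gene's mean but not the spread among tumours, so it can pass as well. A call therefore does not separate tumour copy number from such a bias, whose part in these counts was not tested. The same holds for the tests on bins. Relative to the chromosome's mean, 81 genes passed below and 148 above, where 20.5% and 28.9% of all genes did. That total of 229 was 144 without tumour 240, 133 without tumour 244 and 143 without tumour 252.

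How far a gene stood from the block's level went with how few probes read it. The SD over genes of the mean was 0.32 for the 137 genes with 1 probe, 0.21 for the 157 with 2 to 4, 0.15 for the 76 with 5 to 9 and 0.12 for the 68 with 10 or more. Below 0 in all 4 tumours were 80, 110, 66 and 64 genes of these classes. The median of the 51 probes nearest to a gene, here called the surrounding level, was below 0 in all 4 tumours for 427 of the 438 genes and had a mean between -0.48 and -0.10. The 51 include the gene's own probes, so for genes with many probes the surrounding level is partly or mostly their own.

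**Figure D4:**
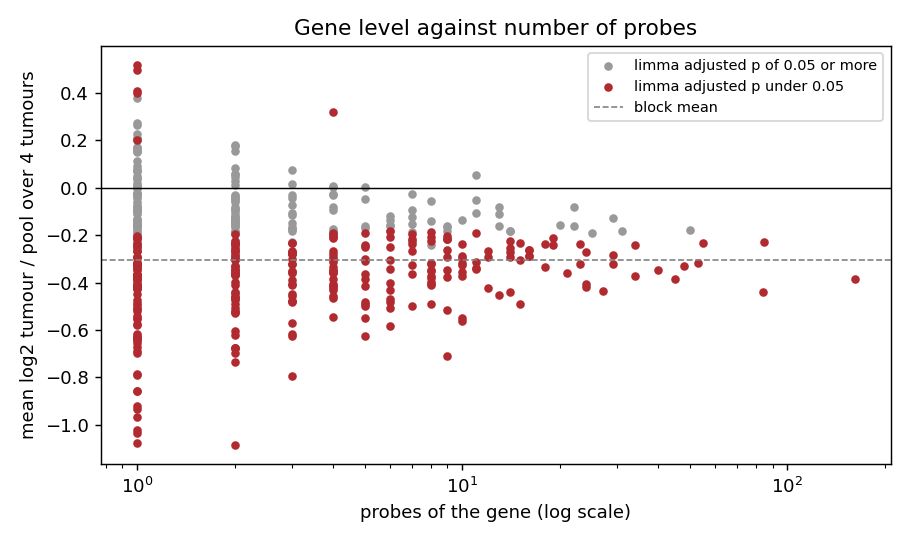
Mean log2 ratio over the 4 tumours of each of the 438 genes (vertical axis) against its number of probes (horizontal axis, log scale), with genes past a limma adjusted p of 0.05 against 0 in red. The points narrow towards the block mean of -0.30 (dashed) as probes increase, from an SD of 0.32 at 1 probe to 0.12 at 10 or more.

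For all the gene lists that follow, the count that passed below 0 is to be read against 61.2% of the block's genes and 15.1% of all genes. On the list of tyrosine breakdown and liver metabolism, 13 of 21 genes with probes passed below 0 (12 without tumour 252) and 0 above, with a median of -0.28, close to the block's share. The list's member in tyrosine breakdown is Gstz1, and the others act elsewhere in metabolism or transport. Acot2, Acot4, Acot6 and Dio3 are not named on any probe, and Gch1 lies outside the block. Gstz1 read -0.47, -0.76, -0.85 and -0.71 in tumours 239, 240, 244 and 252, the lowest of the list, and all 4 lay below its surrounding level, which averaged -0.30. Its mean was -0.70 ± 0.16 (SD, n = 4, limma adjusted p = 0.0012), but it rests on the 2 probes shown above and moved to -0.37 under normexp. That p does not separate tumour copy number from a bias fixed to the probes or the pool, as for every gene listed. The first of those probes read -0.50, -0.98, -1.08 and -0.90 and the second -0.43, -0.55, -0.61 and -0.53, so both were low and the first more so in each tumour.

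Galc, which breaks down galactolipids in lysosomes, read -0.46, -0.34, -0.53 and -0.39 over 6 probes, and its mean of -0.43 passed (limma adjusted p = 0.0026). Pygl, the liver enzyme that releases glucose from glycogen, read -0.33, -0.25, -0.44 and -0.23 over 4 probes. Mthfd1, an enzyme of one-carbon metabolism, read -0.33, -0.29, -0.39 and -0.28 over 7 probes, the most even of the list's named genes. In each of these genes tumours 240 and 252 were the higher pair, without overlap with 239 and 244. Lgmn, a lysosomal protease, had a mean of -0.34 ± 0.11 and Dglucy, which acts on D-glutamate, of -0.32 ± 0.14 (SD, n = 4 each), and both passed. Sptlc2, a subunit of the first enzyme of sphingolipid synthesis, had a mean of -0.32 ± 0.10 and lost its call under normexp (-0.18, adjusted p = 0.053).

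The serpin cluster encodes protease inhibitors that the liver secretes, with many near-identical copies in the mouse. Of 17 members with probes, 8 passed below 0 (8 without tumour 252) and 0 above, with a median of -0.25, against 61.2% of the block's genes. Serpina1a to Serpina1d, which encode alpha-1-antitrypsin, and Serpina3i, Serpina3m, Serpina5 and Serpina16 are not named on any probe. The members read by 1 or 2 probes ranged from -0.79 to 0.38, whereas their surrounding levels ranged only from -0.31 to -0.26. Serpina3h, at the upper end, read -0.34, 0.58, 1.11 and 0.15 on 1 probe. Serpina3a, at the lower end, read -0.63, -0.79, -0.96 and -0.78, also on 1 probe. Because copies of this family are alike in sequence, a probe may read several of them, and single members are uncertain. Serpina10, an inhibitor of clotting factors, read -0.55, -0.35, -0.56 and -0.39 over 2 probes and passed.

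Of the list of transcription factor genes, 9 of 18 with probes passed below 0 (6 without tumour 252, 5 without tumour 239 and 5 without tumour 240) and 1, Pax9, passed above, with a median of -0.21. The 9 include Hhipl1, which encodes no transcription factor. Nkx2-1, Nkx2-9, Six6, Zfp36l1, Fos and Irf2bpl are among the list's genes not named on any probe. Hif1a, the oxygen-regulated factor, read -0.35, -0.19, -0.50 and -0.19 over 4 probes, all below 0 and averaging -0.31 ± 0.15 (SD, n = 4, limma adjusted p = 0.016). Foxa1 read -0.04, 0.12, -0.23 and 0.07 on its 1 probe, on both sides of 0, while its surrounding level averaged -0.40. The sign of its mean of -0.02 turned under normexp (0.33), lowess on intensity (0.15) and the G and C correction (0.018), and without tumour 244 (0.049). No direction can be given for Foxa1 from this probe.

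Npas3, a neuronal factor gene read by 85 probes, had -0.26, -0.15, -0.34 and -0.16, and Foxn3, a forkhead repressor read by 29, had -0.36, -0.22, -0.36 and -0.19. Both passed, Npas3 not without tumour 239 or 240. Bcl11b, a factor of T-cell development, had a mean of -0.22 ± 0.10 and passed (limma adjusted p = 0.033), but not when any 1 tumour was left out. Esrrb, an orphan nuclear receptor gene, had a mean of -0.16 ± 0.11 on 20 probes (limma adjusted p = 0.094), and passed under normexp (-0.19, adjusted p = 0.039). Esr2, which encodes an oestrogen receptor, read -0.28, 0.03, -0.16 and -0.07 (limma adjusted p = 0.21), and its mean of -0.12 was -0.067 without tumour 239. The 1 probe of Pax9 read 0.19, 0.34, 0.07 and 0.20, with a surrounding level of -0.33, and its call did not hold with centring on the mode, after the G and C correction, or without tumour 239, 240 or 252.

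Of the DNA repair and replication genes, 6 of 10 with probes passed below 0 (5 without tumour 252) and 0 above, with a median of -0.21, and Xrcc3 is not named on any probe. Rad51b, a recombination gene read by 53 probes, had -0.33, -0.24, -0.42 and -0.28. Its mean of -0.32 passed (limma adjusted p = 0.0074). The surrounding level of -0.31 comes largely from the gene's own probes and is no separate check. Mnat1, which assembles the CDK-activating kinase, had a mean of -0.23 ± 0.12 over 15 probes, and Fancm, a DNA translocase of the Fanconi pathway, of -0.18 ± 0.07 over 6. Both passed with all 4 tumours, Mnat1 not without 239, 240 or 244, and Fancm not without any 1 of them, nor after the G and C correction. Under normexp Fancm read -0.53.

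Mlh3, a mismatch repair gene, read -0.19, 0.11, -0.18 and 0.07 over 5 probes, and Vrk1, a nuclear kinase gene, -0.26, 0.05, -0.11 and 0.10 over 8. In both, tumours 240 and 252 lay above 0 and 239 and 244 below. Neither passed (limma adjusted p = 0.64 and 0.59). Their values depend on the background correction: normexp gave -0.24 for Mlh3 and -0.59 for Vrk1, both past the threshold, while the mean of Vrk1 without tumour 239 was 0.012. Tdp1, which removes trapped topoisomerase from DNA, had a mean of -0.14 ± 0.12 (limma adjusted p = 0.14), and of -0.089 without tumour 244. It passed when only probes well above background were used (-0.19, adjusted p = 0.049).

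Of the tumour suppressor and growth signalling genes, 15 of 23 with probes passed below 0 (14 without tumour 252) and 0 above, with a median of -0.24, close to the block's share of 61.2%. Siva1 and Tcl1 are not named on any probe. Sav1 read -0.41, -0.32, -0.10 and -0.24 over its 2 probes, averaging -0.27 ± 0.13 over tumours (SD, n = 4, limma adjusted p = 0.022). It read -0.56 under normexp and lost its call without tumour 239 or 240. Tumour 244, among the lower tumours over the block, was the highest here, and the 2 probes ranked the tumours differently. Ppp2r5e, a regulatory subunit of protein phosphatase 2A, read -0.52, -0.44, -0.59 and -0.40 over 15 probes, with a surrounding level of -0.41. Prkd1, a protein kinase D gene at the block's start, read -0.49, -0.39, -0.53 and -0.32 over 27 probes. Both passed (limma adjusted p = 0.0018 and 0.0029).

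Numb, which restrains Notch signalling, had a mean of -0.29 ± 0.14 on 14 probes, Daam1, an actin regulator of Wnt signalling, of -0.29 ± 0.12 on 16, Rps6ka5, a chromatin kinase gene, of -0.24 ± 0.11 on 19, and Prkch, a protein kinase C gene, of -0.21 ± 0.11 on 19. All 4 passed with every tumour in the fit. Numb and Rps6ka5 did not pass without tumour 239, 240 or 244, Daam1 not without 240, and Prkch not without any 1 tumour, nor with centring on the mode. Dicer1, which cuts miRNA precursors, read -0.30, -0.13, -0.27 and -0.06 over 7 probes and did not pass (mean -0.19 ± 0.11, limma adjusted p = 0.059), but did under normexp (-0.31) and lowess (-0.22).

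Akt1 read 0.28, 0.08, 0.05 and 0.50 on its 1 probe, above 0 in every tumour, while its surrounding level averaged -0.24. The mean of 0.23 ± 0.21 did not pass (limma adjusted p = 0.077), fell to 0.14 without tumour 252, and turned to -0.49 under normexp. The level of Akt1 is therefore not settled by this probe. Traf3, an adaptor that restrains NF-kappaB signalling, read -0.01, 0.04, 0.03 and 0.15 over 11 probes, the highest of the well-covered genes, with a surrounding level of -0.14. Its mean of 0.05 was 0.020 without tumour 252 and turned to -0.10 under normexp.

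The list of the imprinted domain also holds Begain and Wdr25, which lie proximal to Dlk1. Of its 6 genes with probes, 3 passed below 0 (3 without tumour 252), where 61.2% of the block's genes did, and 0 above. The 3 were Meg3, Mirg and Wdr25. The list's median was -0.22, and Rtl1 and Dio3 are not named on any probe. Meg3, the maternally expressed long non-coding RNA gene, read -0.50, -0.29, -0.65 and -0.46 over 3 probes. Its mean of -0.48 ± 0.14 (SD, n = 4) passed (limma adjusted p = 0.0033) but moved to -0.19 under normexp and then did not (adjusted p = 0.052). Rian, a non-coding RNA gene that contains small RNAs, read -0.13, -0.10, -0.31 and -0.10 over 5 probes and did not pass (limma adjusted p = 0.087). Under normexp its mean of -0.16 became -0.039. Mirg, the host of miRNAs, read -0.49, -0.51, -0.85 and -0.73 on 1 probe and passed.

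Dlk1 read -0.30, 0.06, -0.28 and -0.09 on its 1 probe, with a surrounding level of -0.26. Its mean of -0.15 did not pass (limma adjusted p = 0.16) and turned to 0.10 under normexp. Begain, proximal to Dlk1 and so outside the stretch from Dlk1 to Dio3, had a mean of -0.16 ± 0.06 on 3 probes (limma adjusted p = 0.062). Under lowess its mean was -0.087. Wdr25, next to Begain and also outside that stretch, had a mean of -0.27 ± 0.07 on 14 probes and passed (limma adjusted p = 0.012). The array reads total DNA, so the maternal and paternal copies of this domain cannot be told apart.

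Between Meg3 and Dio3 the RefSeq gene order of GRCm38.p6 places 58 miRNA genes, of which none is named on a probe of the block. The 114 mature miRNA entries listed for the domain come from more genes than these 58. They have 104 different seeds, the bases 2 to 8 that pair with targets. A pair of entries holds each of 10 seeds, but the pair with seed GCCCCUG is the same miRNA, mmu-miR-3070-5p, listed for Mir3070a and Mir3070b. Pairs are shown because a change in copy number at this domain covers members of such pairs together. The RefSeq sequences of 2 pairs follow, with the seed in capitals.
mmu-miR-379-5p: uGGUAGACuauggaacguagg
mmu-miR-1193-5p: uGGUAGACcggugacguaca
mmu-miR-379-3p: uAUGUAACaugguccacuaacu
mmu-miR-411-3p: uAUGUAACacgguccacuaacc
No value of their own was measured for them. The nearest measured genes are Meg3, Rian and Mirg, with means of -0.48, -0.16 and -0.64 and surrounding levels between -0.28 and -0.24.

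The large genes are read by the most probes. Of 15, 13 passed below 0 (13 without tumour 252, 9 without tumour 239 and 9 without tumour 240) and 0 above, with a median of -0.32, where 61.2% of the block's genes passed below. Below 0 in all 4 tumours were 15 of 15, against 320 of the block's 438 genes. Of the block's 68 genes with 10 or more probes, 52 passed below 0 and 64 lay below 0 in all 4 tumours. Nrxn3, a synaptic adhesion gene with 161 probes, the most of any in the block, read -0.41, -0.31, -0.49 and -0.33, averaging -0.39 ± 0.08 over tumours (SD, n = 4, limma adjusted p = 0.0039). Mdga2, another neuronal adhesion gene, read -0.48, -0.35, -0.54 and -0.39 over 84 probes, and Gphn, which encodes gephyrin, -0.52, -0.26, -0.45 and -0.32 over 45. Rgs6, a regulator of G-protein signalling, read -0.36, -0.13, -0.29 and -0.16 over 55 probes, passed, and did not without tumour 239, 240 or 244. Under normexp the means of Rgs6 and Numb were -0.36 and -0.45. In each of these genes tumours 239 and 244 were below 240 and 252, as over the whole block. Against the chromosome's mean in the same tumour, Mdga2 was lower by 0.13 in size (limma adjusted p = 0.018), while Nrxn3, Rgs6, Npas3, Gphn and Rad51b did not pass (limma adjusted p between 0.081 and 0.87).

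**Figure D5:**
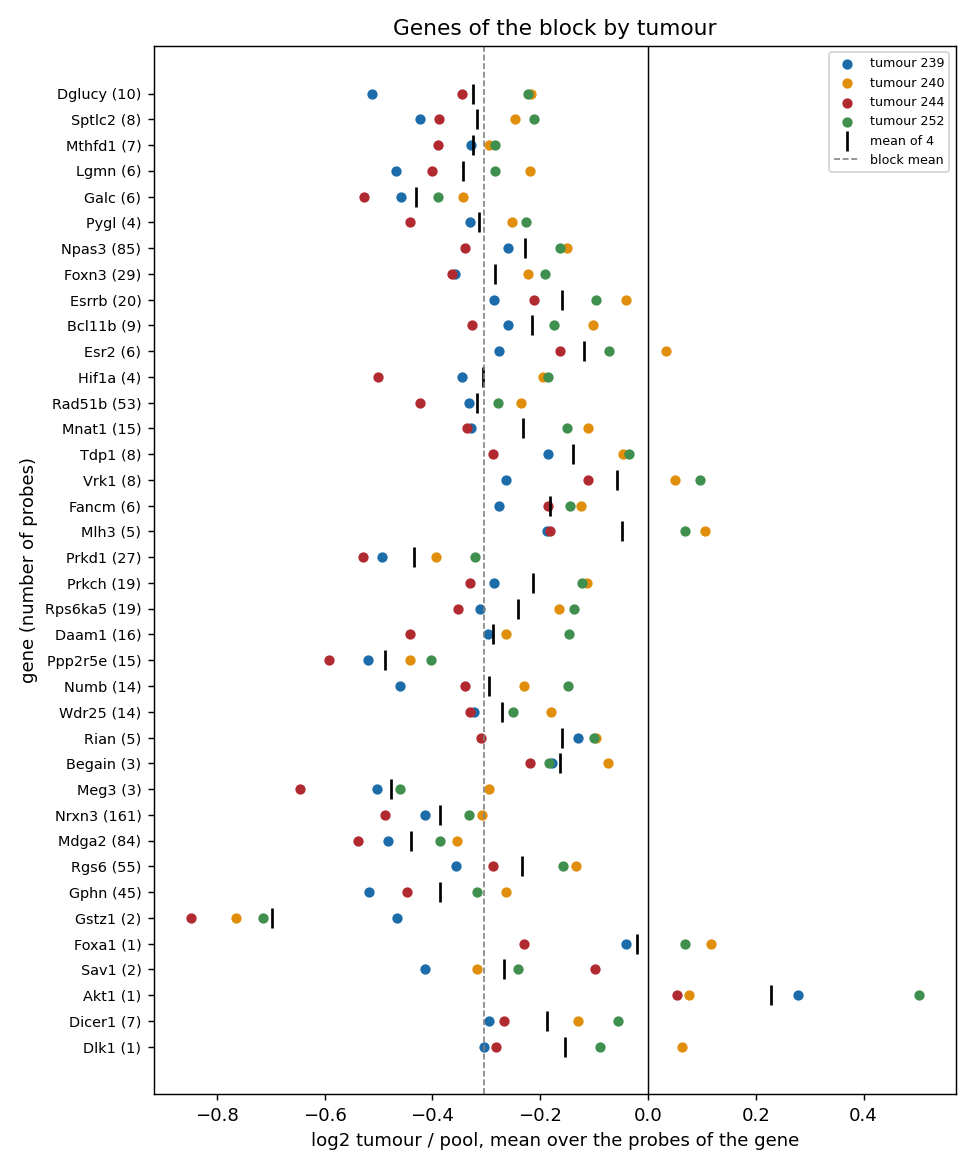
Log2 ratio of tumour over pool (horizontal axis) of 38 genes of the block by tumour, with the number of probes in brackets, the mean over tumours as a black tick and the block mean of -0.30 dashed. Genes with many probes, such as Nrxn3 with 161, lie near the block mean with tumours 239 and 244 to the left, whereas Gstz1 (-0.70), Foxa1 (-0.02) and Akt1 (0.23), with 1 or 2 probes, lie apart.

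Among genes with at least 5 probes, the 5 farthest below the chromosome's mean included Zfyve1, Wdr89, Btbd7 and Dcaf5. Zfyve1, which encodes a lipid-binding membrane protein, read -0.78, -0.47, -0.74 and -0.51, and Btbd7 -0.70, -0.47, -0.59 and -0.49. Wdr89 and Dcaf5 had means of -0.58 and -0.55. The surrounding levels of these 4 genes lay between -0.44 and -0.20, above the means of the genes themselves. Since the genes were picked as the lowest, that gap is no separate result.

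The 5 farthest above the chromosome's mean were Traf3, Klc1, Ccdc85c, Mlh3 and 2700049A03Rik. Klc1, a kinesin light chain gene, read -0.21, 0.11, -0.07 and 0.19, and Ccdc85c -0.24, 0.01, -0.08 and 0.20, with tumours 240 and 252 above 0 in both. None of the 5 passed against 0, and their surrounding levels lay between -0.33 and -0.14. The sign turned in 3 of them, Traf3, Klc1 and Ccdc85c. The mean of Klc1, 0.0046, was below 0 under 5 other settings and without tumour 240 or 252, and that of Ccdc85c, -0.02, was 0.047 without tumour 239. Under normexp Klc1, Ccdc85c and 2700049A03Rik read -0.30, -0.42 and -0.27 and passed below 0.

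Of the 11 genes above 0 in all 4 tumours, 5 were among the 6 that passed above 0. Sel1l, part of the machinery that clears misfolded proteins from the endoplasmic reticulum, was the only one of the 11 with more than 2 probes, and it is named after its values were seen. Its 4 probes averaged 0.36, 0.28, 0.26 and 0.38, close together and all above 0, with a limma adjusted p of 0.0063. The 51 probes nearest to it, its own included, had a median of -0.23 over tumours. The other 5 that passed, Pax9 at 0.20 among them, were read by 1 probe each.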

How the data were processed

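Agilent mouse CGH arrays of 4 tumours against 1 pool lay on 1 slide, which leaves no batch of slide or scan to test. The software was Agilent Feature Extraction 12.0.0, per the submitters' processing notes. Per the file headers, the processed intensity of each colour is background-subtracted, detrended and linearly dye-normalised, positions are mm9, and the deposited log10 ratio is tumour over pool. The deposited raw intensity columns hold unprocessed brightness. Of 180880 spots per array, 6575 controls and between 95 and 120 outliers were dropped, spots of a probe averaged, and log2 of the ratio of the deposited processed intensities centred on the median of 161460 autosomal probes, with no loess step. No dye was swapped, so a dye effect shared by the arrays stays in every value.

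An intercept was fitted to each gene and to each 1 Mb bin of 5 or more probes with limma 3.58.1 (R 4.3.3), with Benjamini-Hochberg adjustment over all bins or all genes and a threshold of 0.05. The script was tested on simulated data. Single values had exact sign-flip permutation tests over tumours. The other steps used Python 3.11.15, numpy 2.4.6, pandas 2.3.3, scipy 1.17.1 and statsmodels 0.14.6, and plots matplotlib 3.10.9. Alternatives were the centring, normexp (offset 50), the authors' value table, lowess (span 0.3), probes above background, medians, robust limma, 5 Mb bins, genes with 3 or more probes and each tumour left out. The G and C correction was added after the data were seen. RefSeq's GRCm38.p6 table, used for names and gene order only, held 15443 of the files' 18700 gene names as current symbols and 703 as older ones. The other 2554 were kept.

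The members, lists and tests were chosen with earlier results of these data known. Always named were Gstz1, Foxa1, Hif1a, Sav1, Akt1, Dicer1, Dlk1, Meg3 and Dio3. Then came up to 6 genes per list with the most probes (at least 3), the 5 highest and 5 lowest genes with at least 5 probes, the 5 with the most probes, and the 3 highest and 3 lowest bins. Other list members in the text (the serpins, Pax9 and Mirg), Flrt2 and Sel1l were chosen after their values were seen. Some genes that the rule names are not reported here.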

Additional observations from a re-analysis of the deposited data

Results flagged for a closer look

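In 1 of 69 results tested for a tumour that stands apart from the other 3, the gene Rian, tumour 244 lay at -0.31 while tumours 239, 240 and 252 lay at -0.13, -0.10 and -0.10. Chance flags about 1 in 20 such groups.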

How the results depend on the processing

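The block mean stayed below 0 under every setting run, between -0.36 and -0.29 over the settings and -0.34 and -0.27 with 1 tumour left out, and the block stayed above the proximal part in each. Its difference from the distal end, -0.0056, was 0.00060 with medians over probes. The 55 bins below 0 became 12 of 13 with 5 Mb bins and between 0 and 53 with a tumour left out. The 268 genes below 0 became 164 of 218 when only genes with at least 3 probes were tested. Of those against the chromosome mean, 47 bins became 10 of 13 with 5 Mb bins, which are fewer bins, and 229 genes became 127 of 218 with at least 3 probes and between 133 and 239 with a tumour left out. Of 517 recomputed values of the 47 named genes, 460 kept direction and call, 33 lost a call (12 genes), 8 gained one (7 genes) and 16 turned sign (7 genes). Under normexp the turned values were 0.33 for Foxa1, -0.49 for Akt1, 0.10 for Dlk1, -0.30 for Klc1 and -0.10 for Traf3. Lowess gave 0.15 for Foxa1 and -0.069 for Klc1, the G and C correction 0.018 for Foxa1 and -0.015 for Klc1. Centring on the mode gave -0.023 and probes above background -0.11 for Klc1. With a tumour left out, Vrk1 lay between -0.11 and 0.012, Ccdc85c between -0.10 and 0.047, Foxa1 between -0.067 and 0.049 and Klc1 between -0.058 and 0.078. The cause of these changes was not tested. No paired analysis was possible because every tumour belongs to 1 group and was set against the same pool.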
